A study of Mus musculus with 8 samples.

Results

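The miR-130 and miR-301 family is a group of miRNAs that share the same seed, the bases at positions 2 to 8 through which a miRNA pairs with the mRNAs it silences. The array carried 4 members, mmu-miR-130a, mmu-miR-130b, mmu-miR-301a and mmu-miR-301b (miR-130a and so on below), chosen here by their exact names from the 611 mouse miRNAs measured. They were profiled in pubertal mammary gland, where terminal end buds (TEBs), the proliferative and invasive tips of the growing ducts, were compared with mature ducts and with distal stroma to find miRNAs that differ between these fractions. TEBs gave 3 arrays, mature ducts gave 2 and stroma gave 3. All tissue came from female FVB/n mice, 5 weeks old, that carried a β-actin-GFP reporter, and no treatment or other allele is stated for any group. The reporter made the tissue visible for cutting under a fluorescence microscope and did not purify a cell type, so each array holds a piece of tissue with all of its cells. In such bulk samples fewer cells of a type and less RNA per cell cannot be told apart.

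A miRNA is cut as 1 strand of a short hairpin and loaded into an Argonaute protein, which it guides to matching sites in mRNAs. Members of a seed family can therefore bind many of the same sites even when the rest of their sequence differs. miR-130a is known for repressing Pparg, the master regulator of adipocyte differentiation, and the anti-angiogenic homeobox genes GAX and HOXA5 in endothelial cells. miR-301a is known for repressing NKRF, a repressor of NF-κB signalling.

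The mature sequences of 3 of the 4 members are shown because they define the family and show how close the probes' targets are. Sequences and hairpin positions are those of RefSeq on GRCm38.p6, written 5′ to 3′ with the seed in capitals.
miR-130a: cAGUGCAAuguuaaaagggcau
miR-130b: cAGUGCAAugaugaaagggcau
miR-301a: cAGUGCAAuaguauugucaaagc

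Counted from 1 at the 5′ end, miR-130a and miR-130b were identical at 20 of 22 positions and differed by U11A and A13G. miR-130a and miR-301a were identical over their first 9 bases and at 12 of 22 positions in all. The hairpin of miR-130a lies at chr2:84741115-84741178 on the minus strand, inside the span of no annotated gene. The hairpin of miR-301a lies at chr11:87113004-87113089 on the plus strand, within the span of Ska2, which encodes a spindle and kinetochore protein. The hairpins of miR-130b, at chr16:17124061-17124142, and miR-301b, at chr16:17124400-17124496, are neighbours on the minus strand with 257 bases between them, within the span of the gene 2610318N02Rik. Among 1679 mature mouse miRNAs in the RefSeq table, 7 carried the seed. By the 492 array names that matched that table, the other miRNA on the array with this seed was miR-721, whose hairpin at chr5:136375716-136375803 lies on the minus strand within the span of Cux1.
miR-721: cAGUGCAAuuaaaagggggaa

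Across the 8 arrays, 142 to 169 of the 611 mouse miRNAs were detected, with summed signals of 57154.5 to 97313.7 units. Arrays of the same tissue correlated more closely (r of 0.955 to 0.987, 7 pairs) than arrays of different tissues (r of 0.645 to 0.926, 21 pairs), across miRNAs that are not independent replicates. None of 9 epithelial miRNAs (the miR-200 and miR-183 families and miR-205) was detected in stroma, and every TEB and every duct array detected 8 of the 9. The labels' stroma therefore lacked epithelial markers, while TEBs and ducts also held 4 of 5 mesenchymal markers on every array. The summed scaled level of those mesenchymal markers was 2467 to 2964 in stroma, 3427 and 3512 in ducts, and 3160 to 3779 in TEBs. Nothing states that replicates came from separate animals, so the p-values below measure the spread between these samples, which may be technical, and the number of arrays limits the precision.

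miR-130a was bright on every array, and after scaling it was highest in stroma. Each array was scaled to the 75th percentile of its signals over 108 miRNAs, those that all 8 arrays detected. On that scale its signal was 990.5, 1019.8 and 1049.6 on the stroma arrays. It was 867.7 and 784.3 on the duct arrays and 794.8, 855.5 and 737.4 on the TEB arrays. Each stroma array therefore lay above each duct and TEB array, while the ducts and TEBs overlapped. Such a separation was common, since 48.5% of the 167 miRNAs tested were higher on all stroma arrays than on all TEB arrays and 22.8% were higher on all stroma than on all duct arrays. The means were 1020.0 ± 29.6 in stroma (SD, n = 3), 826.0 ± 58.9 in ducts (SD, n = 2) and 795.9 ± 59.1 in TEBs (SD, n = 3). On this scale the stroma arrays thus stood above the rest, with no step beyond the spread between ducts and TEBs. By the test given below, the difference between ducts and stroma was not called (adjusted p = 0.086 by limma). The signals before scaling were 969.4, 849.5 and 771.5 in stroma, 1157.0 and 977.8 in ducts, and 789.1, 904.1 and 705.5 in TEBs. Unscaled, the stroma and TEB arrays overlapped and the duct arrays were the highest.

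miR-301a was also detected on all 8 arrays, and it ran the other way, being lowest in stroma. Its scaled signal was 77.0, 78.4 and 79.8 in stroma, 86.3 and 98.9 in ducts, and 107.0, 107.9 and 91.0 in TEBs. All TEB and duct arrays lay above all stroma arrays, and the TEB and duct arrays overlapped. This separation from stroma was shared by 23.4% of the tested miRNAs in TEBs and by 19.8% in ducts. The means were 78.4 ± 1.44 in stroma (SD, n = 3), 92.6 ± 8.89 in ducts (SD, n = 2) and 102.0 ± 9.51 in TEBs (SD, n = 3). Before scaling, miR-301a gave 75.3, 65.3 and 58.7 units in stroma, 115.1 and 123.3 in ducts, and 106.2, 114.1 and 87.1 in TEBs. The stroma arrays were thus the lowest with or without scaling, but the order of ducts and TEBs changed. Relative to signal, the scanner software's own error was larger for miR-301a, whose signal was 6.55 to 9.73 times its error, than for miR-130a, whose signal was 13.0 to 13.3 times its error.

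**Figure D1:**
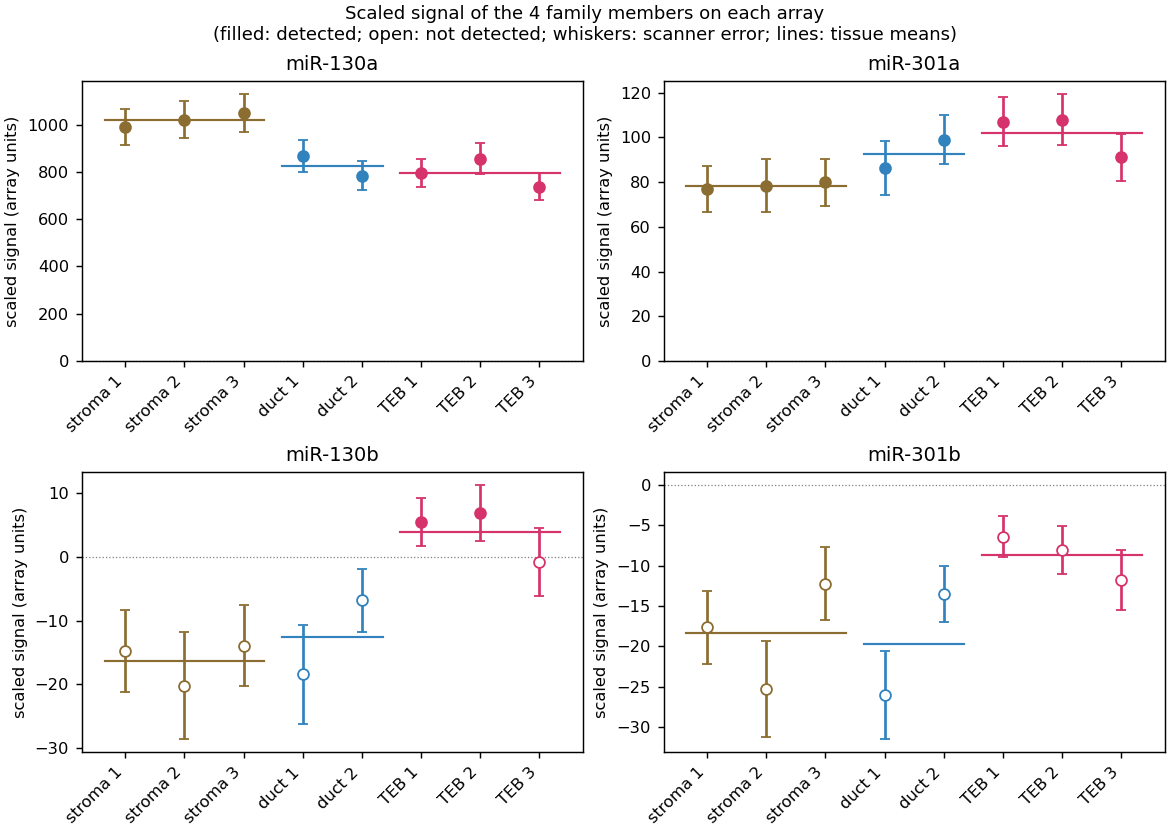
Scaled signal (array units, linear axes that differ between panels) of miR-130a, miR-301a, miR-130b and miR-301b on the 3 stroma, 2 duct and 3 TEB arrays, with filled points where the miRNA was detected, whiskers for the scanner software's error and lines for the tissue means. miR-130a sits at 990.5 to 1049.6 in stroma and below 868 elsewhere, miR-301a at 77.0 to 79.8 in stroma and above 86 elsewhere, and miR-130b has filled points on TEB arrays 1 and 2 alone.

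Between TEBs and stroma, both tested members differed, in opposite directions. miR-130a was 1.28-fold higher in stroma (log2 change from stroma to TEBs of -0.36, SE 0.09, 95% interval -0.58 to -0.14, adjusted p = 0.015 by limma). miR-301a was 1.30-fold higher in TEBs (log2 change 0.38, SE 0.10, 95% interval 0.13 to 0.62, adjusted p = 0.019 by limma). Thus 2 of the 2 tested members passed the threshold of 0.05, in a comparison in which 64.7% of all tested miRNAs passed it, 20.4% being higher in TEBs and 44.3% higher in stroma. By size the changes were modest, since miR-301a ranked 122nd and miR-130a 125th of 167 by absolute change, and the median absolute log2 change of all tested miRNAs was 0.71. The median signed change of all tested miRNAs was -0.28, so that relative to it miR-130a changed by -0.08 and miR-301a by 0.65. The call for miR-130a was lost with no scaling (log2 change -0.11) and without TEB 1 (-0.33, adjusted p = 0.063 by limma), and its direction turned with the percentile taken over all mouse miRNAs (0.033). The call for miR-301a was lost with the normexp background correction (0.028), with the percentile over all mouse miRNAs (0.77, adjusted p = 0.054 by limma), and without any of TEB 1, TEB 2, stroma 1 or stroma 2 (0.33 to 0.37, adjusted p of 0.055 to 0.063 by limma).

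The ratio of the 2 members within an array removes any scaling factor, and it rose from stroma to both epithelial fractions. Set against its stroma mean, the log2 ratio of miR-301a to miR-130a was 0.81, 0.71 and 0.68 on the TEB arrays and 0.37 and 0.71 on the duct arrays. The stroma arrays stayed within 0.015 of their mean. No TEB or duct array reached the stroma arrays, and duct 2 lay among the TEB arrays. This separation from stroma follows from the opposite separations of the 2 members given above. The share of all miRNAs that separate in this way relative to miR-130a was not counted. Between stroma and TEBs miR-301a rose 1.66-fold relative to miR-130a (log2 0.74, SE 0.12, 95% interval 0.45 to 1.02, adjusted p = 0.0026 by limma over the 166 other tested miRNAs). Of those 166 miRNAs 57.8% passed the same test, so that an unequal change against miR-130a was common in this comparison. The change held its direction and its call in all 24 alternative settings, with values of 0.35 to 0.86 and adjusted p of 5.6e-04 to 0.018 by limma or the methods' t-test. Of these settings, those that change only a scaling factor, a filter or the variance model could not move this value. The count of 24 is therefore no measure of its stability. The ratio shows unequal change and does not say which member moved.

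**Figure D2:**
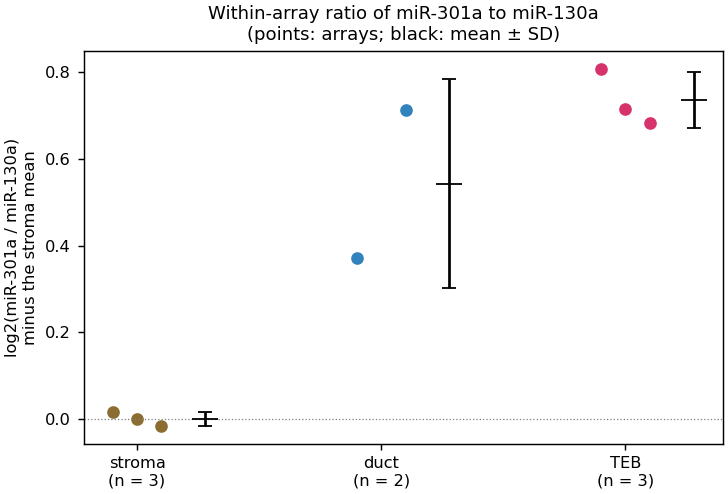
Log2 ratio of miR-301a to miR-130a within each array, minus the stroma mean (vertical axis, log2 units), for stroma (n = 3), ducts (n = 2) and TEBs (n = 3), with black marks for the mean and SD. The TEB arrays lie at 0.68 to 0.81 and the duct arrays at 0.37 and 0.71, all above the stroma arrays, which lie within 0.015 of 0.

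Between ducts and stroma neither member passed the threshold by itself, whereas their ratio did. miR-130a changed by -0.31 on the log2 scale (SE 0.10, 95% interval -0.55 to -0.06, adjusted p = 0.086 by limma). miR-301a changed by 0.24 (SE 0.12, 95% interval -0.04 to 0.52, adjusted p = 0.21 by limma). These 0 of 2 calls compare with 21.6% of all tested miRNAs, 9.58% being higher in ducts and 12.0% higher in stroma. Relative to miR-130a, miR-301a was 1.46-fold higher in ducts (log2 0.54, SE 0.13, 95% interval 0.23 to 0.86, adjusted p = 0.028 by limma), a call that 22.3% of the other miRNAs shared. It was lost in 11 of the 24 alternatives, among them leaving out duct 2 (0.37, adjusted p = 0.159 by limma).

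Between TEBs and ducts, the epithelial fractions, no difference was detectable in the members tested, miR-130a and miR-301a. The log2 change from ducts to TEBs was -0.05 for miR-130a (SE 0.10, 95% interval -0.30 to 0.19, adjusted p = 0.70 by limma). It was 0.14 for miR-301a (SE 0.12, 95% interval -0.14 to 0.42, adjusted p = 0.40 by limma). The change of miR-301a relative to miR-130a was 0.19 (SE 0.13, 95% interval -0.12 to 0.51, adjusted p = 0.31 by limma). Neither member passed, where 24.6% of all tested miRNAs and 17.5% in the test relative to miR-130a did. The TEB and duct arrays overlapped for both members, whereas 22.2% of the tested miRNAs were higher on all TEB arrays and 43.1% were higher on both duct arrays. By the test, 11.4% of the tested miRNAs were higher in TEBs and 13.2% higher in ducts. The 3 comparisons share arrays, so their values are not independent of each other.

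**Figure D3:**
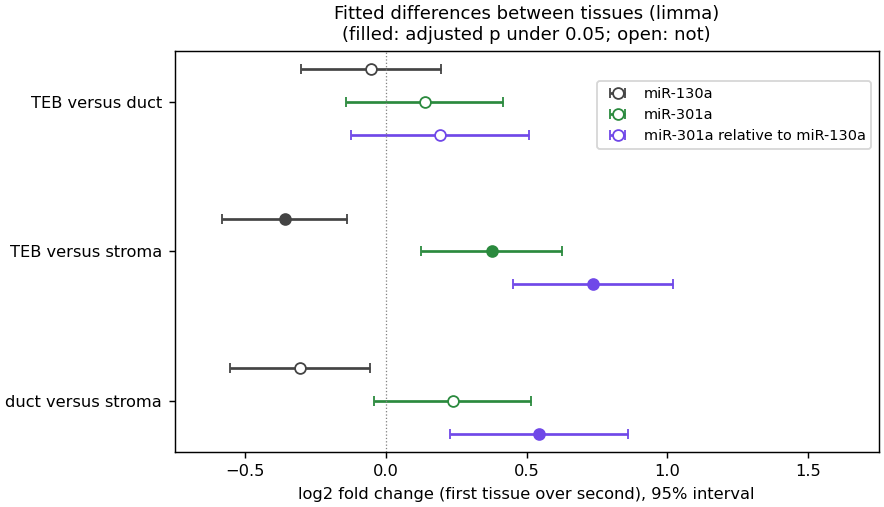
Fitted log2 fold changes (horizontal axis, first tissue over second) with 95% intervals for miR-130a, miR-301a and the change of miR-301a relative to miR-130a in the 3 comparisons, filled where the adjusted p was under 0.05. In TEBs against stroma all are filled (-0.36, 0.38 and 0.74), in ducts against stroma the relative change alone (0.54), and in TEBs against ducts none.

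The arrays lay in 2 rows of a single slide, each row with all 3 tissues and 1 or 2 arrays of each. The direction of the stromal differences was the same in both rows. That was fixed in advance, because no stroma array overlapped a duct or TEB array for either member. The rows are therefore no separate check of that direction. From stroma to TEBs miR-130a changed by -0.26 in row 1 and -0.49 in row 2, and miR-301a by 0.48 and 0.20. From stroma to ducts miR-130a changed by -0.19 and -0.40, and miR-301a by 0.17 and 0.32. Between ducts and TEBs miR-130a changed by -0.07 and -0.09, whereas miR-301a changed by 0.32 in row 1 and -0.12 in row 2.

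Markers of several cell types moved along with these values. The summed scaled level of the endothelial miR-126 strands was 2765 to 3863 in stroma, 1927 and 2061 in ducts, and 1315 to 1650 in TEBs, with 1 of the 2 detected on every array and the other on none. The 2 adipocyte-associated miRNAs summed to 325 to 362 in stroma, 51.7 and 101.2 in ducts, and 81.5 to 153.8 in TEBs. The leukocyte list, of which 2 of 5 were detected in each tissue, summed to 563 to 679 in stroma, 361 and 384 in ducts, and 296 to 450 in TEBs. Like miR-130a, these lists were highest in stroma. The epithelial list summed to 0 to 6.0 in stroma, 2160 and 2391 in ducts, and 2052 to 2190 in TEBs, and like miR-301a was lowest in stroma. So was the mesenchymal list, at 2467 to 2964 in stroma, 3427 and 3512 in ducts, and 3160 to 3779 in TEBs. The red cell miRNAs miR-451 and miR-144 summed to 1988 to 3577 in stroma, 2591 and 3276 in ducts, and 1370 to 1902 in TEBs. The muscle list summed to 31.2 to 60.2 in stroma, 56.1 and 178.6 in ducts, and 17.1 to 89.5 in TEBs. The part of any of these cell types in the results for miR-130a and miR-301a was not tested.

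**Figure D4:**
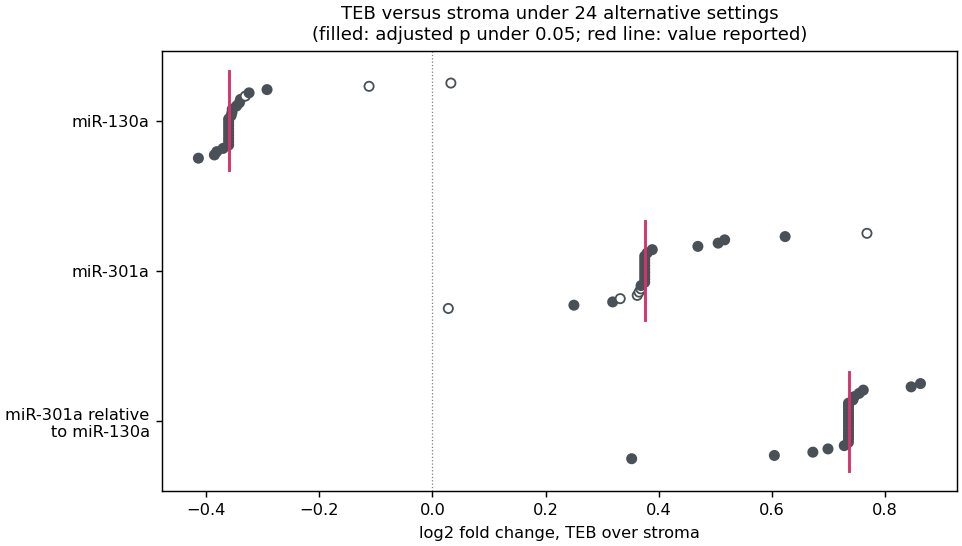
Log2 fold change from stroma to TEBs (horizontal axis) under 24 alternative settings for miR-130a, miR-301a and miR-301a relative to miR-130a, each point a setting, filled where the adjusted p was under 0.05, with the reported value as a red line. miR-130a spans -0.41 to 0.03 and miR-301a 0.03 to 0.77 with some open points, whereas the relative change spans 0.35 to 0.86 with none. Settings that change only a scaling factor, a filter or the variance model cannot move the value of the relative change.

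miR-130b, the closest relative of miR-130a by sequence, was at the limit of detection. Its signal before scaling was -14.4, -16.8 and -10.2 units in stroma, -24.6 and -8.53 in ducts, and 5.43, 7.27 and -0.82 in TEBs, where a negative value is a signal under the local background. It was detected on TEB 1 and TEB 2 alone, at 1.47 and 1.57 times the scanner error, so that it did not enter the tests. All 3 TEB arrays lay above the other 5, as did 39.2% of the 444 miRNAs that were not tested. The signal level of undetected miRNAs itself differed between arrays. The median unscaled signal of the 408 miRNAs detected nowhere, taken as an array's baseline, was -12.9, -14.0 and -6.67 in stroma, -21.2 and -10.5 in ducts, and -4.28, -5.66 and -7.61 in TEBs. Above that baseline miR-130b stood at 9.71, 12.9 and 6.8 units in TEBs. It stood at -1.54, -2.80 and -3.57 in stroma and at -3.31 and 2.01 in ducts. The TEB arrays were again the highest, as were those of 24.1% of the untested miRNAs. A looser filter would admit miR-130b only through the TEB arrays that detected it, with all stroma and duct arrays at the floor, so no test is given. No fold is given either, because its mean log2 signal in TEBs lay under the mean of the lowest detected signals of the stroma arrays and under that of the duct arrays.

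The opposite strand of the same hairpin, miR-130b*, was the only opposite strand of the family on the array, and it had the reverse pattern. It is shown because it comes from the same hairpin as miR-130b with another seed.
miR-130b*: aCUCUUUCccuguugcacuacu

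Its unscaled signal was 20.7, 27.3 and 16.6 units in stroma, 38.2 and 20.7 in ducts, and 4.28, 6.34 and 8.82 in TEBs. It was detected on stroma 2 and stroma 3 and on both duct arrays, and on no TEB array. It thus entered the tests only through the duct arrays, where it was high. Its folds, adjusted p-values and calls are therefore given as description and carry no weight as support for a difference. The TEB arrays lay below all others, as they did for 34.1% of tested miRNAs, or 31.7% with the baseline subtracted. The scaled means were 25.5 ± 6.34 in stroma (SD, n = 3), 22.6 ± 8.55 in ducts (SD, n = 2) and 6.51 ± 2.49 in TEBs (SD, n = 3). With the TEB arrays at their own signals, which were not flagged as detected, miR-130b* was 4.03-fold higher in stroma than in TEBs (log2 change to TEBs of -2.01, SE 0.35, adjusted p = 0.0034 by limma). It was 3.52-fold higher in ducts than in TEBs (-1.81, SE 0.39, adjusted p = 0.021 by limma). Ducts and stroma differed by -0.20 (adjusted p = 0.82 by limma). Within the slide rows the change from stroma to TEBs was -2.05 and -1.56, and that from ducts to TEBs -2.50 and -0.85. The size of these changes depended on how low signals were treated. The change from stroma was -0.65 with normexp, -0.88 with 16 added and -0.94 in the deposited value table, and that from ducts was -0.29, -0.77 and -0.75. The difference from stroma kept its call in all 23 alternatives that could be fitted, and the difference from ducts lost it in 7, among them normexp (adjusted p = 0.147 by limma) and leaving out duct 1 (-1.63, adjusted p = 0.067 by limma) or TEB 2 (-1.79, adjusted p = 0.066 by limma). Within every tissue, the array with the lower baseline had the higher unscaled signal of miR-130b*. With the baseline subtracted from each array, an alternative chosen after the data had been seen, the change to TEBs was -1.65 from stroma (adjusted p = 0.0040 by limma) and -1.48 from ducts (adjusted p = 0.025 by limma).

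**Figure D5:**
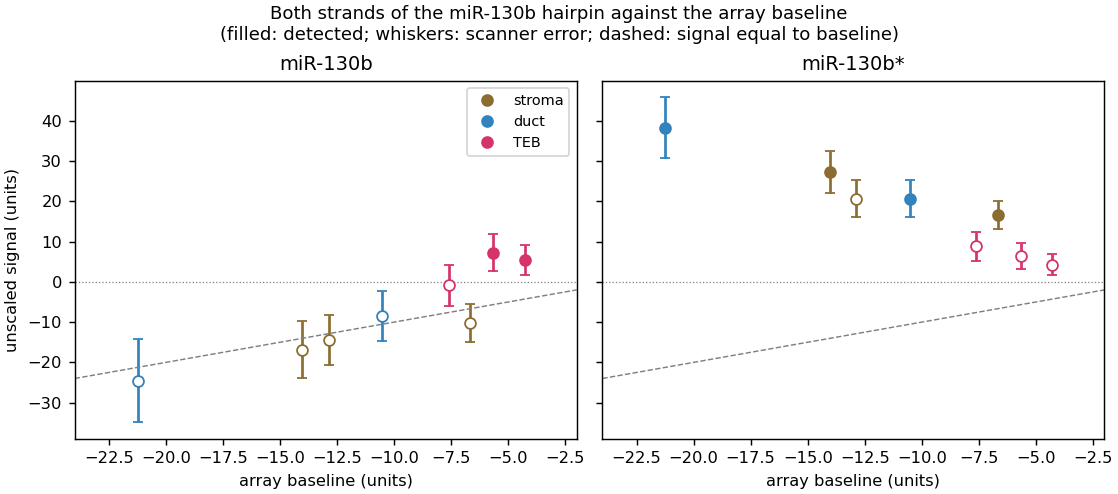
Unscaled signal (vertical axis, units) of miR-130b and miR-130b* against the baseline of each array (horizontal axis, median signal of the 408 miRNAs detected nowhere), with filled points where detected, whiskers for the scanner error and a dashed line where signal equals baseline. miR-130b follows the dashed line except on the 3 TEB arrays (5.43, 7.27 and -0.82), whereas miR-130b* lies above it on all arrays and is lowest on the TEB arrays (4.28 to 8.82).

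miR-301b, the hairpin neighbour of miR-130b, was detected on no array. Its unscaled signal was -17.3, -21.1 and -8.98 units in stroma, -34.7 and -16.8 in ducts, and -6.38, -8.50 and -11.2 in TEBs. All 8 values lay below the array's baseline, at -13.4 to -2.10 units relative to it. miR-721, the other miRNA with the seed, was not detected either, at -23.5, -28.9 and -13.5 units in stroma, -32.1 and -16.1 in ducts, and 11.5, 6.07 and -0.22 in TEBs. The detection flag did not follow signal over error alone, since miR-721 on TEB 1 stood at 4.41 times its error without a flag and miR-130b on the same array was flagged at 1.47. The probes for miR-130b and miR-721 were at or below background on 6 of the 8 arrays on which miR-130a was bright. At this sensitivity a weak signal of miR-130b, miR-301b or miR-721 was not detectable, which does not show that they were absent.

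Families whose seeds overlap that of miR-130 when shifted by 1 base can share part of its target sites, and they are shown for that overlap. miR-148a and miR-152, known for repressing the DNA methyltransferase Dnmt1, hold the bases AGUGCA from position 3, which miR-130a holds from position 2. miR-19a and miR-19b, members of the proliferation-linked miR-17-92 cluster and its paralogue, hold GUGCAA from position 2, which miR-130a holds from position 3.
miR-148a: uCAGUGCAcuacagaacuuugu
miR-152: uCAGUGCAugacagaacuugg
miR-19a: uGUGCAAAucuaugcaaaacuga
miR-19b: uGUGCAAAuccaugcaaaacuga

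Of 5 such miRNAs on the array 4 were tested, and the fifth, miR-148b, was detected on no array. From ducts to TEBs 2 of the 4 rose and none fell, from stroma to TEBs 2 rose and none fell, and from stroma to ducts 1 rose and none fell. Over all tested miRNAs 11.4%, 20.4% and 9.58% rose in these comparisons. The median log2 change of the 4 was 0.24, 0.44 and 0.19 in these comparisons, beside -0.10, -0.28 and -0.09 for all tested miRNAs. All the calls were miR-19 miRNAs. miR-19a had a scaled signal of 16.1 ± 4.83 in stroma (SD, n = 3), 27.6 ± 4.89 in ducts (SD, n = 2) and 88.2 ± 4.76 in TEBs (SD, n = 3). It was higher in TEBs by 2.50 on the log2 scale against stroma (adjusted p = 2.5e-04 by limma) and by 1.69 against ducts (adjusted p = 0.012 by limma). miR-19b had a scaled signal of 431.4 ± 41.4 in stroma (SD, n = 3), 595.1 ± 9.34 in ducts (SD, n = 2) and 910.1 ± 68.9 in TEBs (SD, n = 3). It was higher in TEBs by 1.08 against stroma (adjusted p = 3.0e-04 by limma) and by 0.61 against ducts (adjusted p = 0.017 by limma), and higher in ducts than in stroma by 0.47 (adjusted p = 0.034 by limma). Against stroma the rise of miR-19a and miR-19b in TEBs kept its call in every alternative fitted, with 0.56 to 2.89 for miR-19a and 0.95 to 1.47 for miR-19b. The rise from ducts to TEBs lost its call for miR-19a without duct 1 (1.29) or TEB 2 (1.68), and for miR-19b without duct 1 (0.42), duct 2 (0.59) or TEB 2 (0.58), among others, and the rise of miR-19b from stroma to ducts lost it in 11 of 24 alternatives. miR-148a changed by -0.21 and miR-152 by -0.28 from stroma to TEBs, and neither passed in any comparison as fitted here. The overlapping seeds thus included members that rose in TEBs, as miR-301a did against stroma, and members with no detectable difference.

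The miRNAs whose log2 values ran most like those of each member were found by Pearson's r over the 8 arrays, which share tissues and scaling. Nearest to miR-130a were miR-350 (r = 0.94), miR-151-5p (r = 0.94) and miR-103 (r = 0.91), the last known for its part in insulin sensitivity of fat. Like miR-130a, miR-151-5p was highest in stroma, with a scaled signal of 550.2 against 407.7 in ducts and 404.6 in TEBs. Nearest to miR-301a were miR-214 (r = 0.91), a mesenchymal miRNA, miR-18a (r = 0.88), of the miR-17-92 cluster, and miR-28 (r = 0.88). miR-214 had a scaled signal of 312.3 in stroma, 450.0 in ducts and 562.9 in TEBs. miR-18a was detected on no stroma array and reached 13.2 in ducts and 77.7 in TEBs. The r between miR-130a and miR-301a was -0.75 over the same 8 arrays. Counted from the highest r, miR-301a ranked 144th of 166 for miR-130a, towards the negative end. It was not the extreme, since miR-19a (r = -0.82) and miR-19b (r = -0.85) had a lower r with miR-130a. For miR-301a, miR-130a was less far down, at rank 114 of 166. Nearest to miR-130b* were miR-329 (r = 0.997), let-7b* (r = 0.99) and miR-211 (r = 0.99), all of which had scaled means under 75 in every tissue.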

How the data were processed

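miRNAs were measured with an Agilent single-colour mouse miRNA array (SurePrint Mouse miRNA Array V2) on 100 ng of total RNA per sample, labelled with Cy3-pCp, from TEBs (3 arrays), mature ducts (2 arrays) and distal stroma (3 arrays), grouped by the titles in the labels. The authors deposited the total gene signal intensity of each miRNA with its error and a detection flag, made by Agilent Feature Extraction 9.5.3 per the labels. These intensities are background-subtracted, can be negative and are not normalised between arrays. The authors also deposited a value table on the log2 scale, whose normalisation and treatment of low values are not given in the sources used here. It served as an alternative.

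Left out were 39 viral probes and 22 control features, which kept 611 mouse miRNAs. The signals of an array were multiplied by a factor (0.75 to 1.36) that set the 75th percentile of the 108 miRNAs common to all 8 arrays to the same value. A floor of 1 was applied before log2 transformation. The functions lmFit, contrasts.fit and eBayes of limma 3.58.1 (R 4.3.3) were applied to all 8 arrays and to 167 miRNAs, those that every array of 1 tissue or more had detected, with Benjamini-Hochberg adjustment within each of 3 comparisons at 0.05. The same fit was run on the within-array log2 difference from miR-130a. Where no array of a tissue detected a miRNA, the higher of the array's lowest detected signal and the miRNA's own signal was taken as its limit there, which for miR-130b* was its own signal. Arrays give no counts, so precision rests on the spread between arrays. The fit was tested on simulated data with known changes, for TEBs against ducts. It recovered 56.7% of 30 changes of 1 on the log2 scale, with 2 false calls, and 90% of 30 changes of 2, with 1 false call. With no change put in, 2 of 20 simulations gave calls. Changes as small as those reported for miR-130a and miR-301a were not simulated.

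The text names the 4 members, their opposite strands, miRNAs with the same or a shifted seed, and the 3 most similar miRNAs of each tested one. The members, lists and tests were chosen with earlier results of these data known. The alternatives were other scalings, floors, background corrections, filters, blocks, variance models and tests, the deposited value table, leaving out each array and, added after the data had been seen, subtracting each array's baseline.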

Additional observations from a re-analysis of the deposited data

How the results depend on the processing

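The changes of miR-130a, miR-301a, miR-130b*, miR-19a, miR-19b, miR-148a and miR-152 and the counts of calls were recomputed under 16 alternatives and without each of the 8 arrays. miR-130b* and miR-19a were not in the test limited to miRNAs detected on all arrays, which left 23 for each. Leaving out a duct array leaves 1, assumed to vary like the other groups. The cause of the changes below was not tested.

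From stroma to TEBs, miR-130a gave 0.033 with the percentile over all mouse miRNAs and -0.11 without scaling, and -0.41 to -0.29 with an array left out. miR-301a gave 0.77 and, with normexp, 0.028, and 0.33 to 0.47 with an array left out. From stroma to ducts, miR-130a gave 0.31 without scaling, passed with normexp (-0.27) and with a trended, robust variance (-0.31), and ran from -0.33 to -0.06 with an array left out. miR-301a gave 0.85, now passing, without scaling and -0.048 with normexp, and 0.14 to 0.55 with an array left out. From ducts to TEBs, miR-130a gave 0.50 with the percentile over all mouse miRNAs and -0.27 to -0.04 with an array left out. miR-301a gave -0.23 without scaling and -0.17 to 0.24 with an array left out, being -0.12 without TEB 1 and -0.17 without duct 1. miR-130b* from stroma to ducts gave 0.42 without scaling, and -0.38 to 0.20 with an array left out (0.05 without TEB 1, 0.20 without duct 2, 0.09 without stroma 2).

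Among the shifted seeds, miR-148a gave 0.43, 0.063 and 0.061 from ducts to TEBs with the percentile over all mouse miRNAs, quantile normalisation and the deposited value table, and 0.19 and 0.043 from stroma to TEBs with that percentile and without scaling. From stroma to ducts it gave 0.53 without scaling, 0.09 without stroma 2, 0.24 without duct 1 and 0.16 without TEB 1 (range -0.21 to 0.24 with an array left out). miR-152 gave 0.39 from ducts and 0.12 from stroma to TEBs with that percentile, and from stroma to ducts 0.50 without scaling, 0.23 without duct 1 and 0.13 without TEB 1 (range -0.24 to 0.23). It was called from stroma to TEBs with normexp (-0.31), the trended, robust variance (-0.28) and the baseline subtracted (-0.33), and from ducts without scaling (-0.53). miR-19a from stroma to ducts gave -0.15 with normexp.

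The change of miR-301a relative to miR-130a kept its side of the threshold throughout for TEBs against stroma and TEBs against ducts. From stroma to ducts it was no longer called in a 2-tissue fit (0.54), with normexp (0.23), quantile normalisation (0.46), the replicate block (0.53), the deposited value table (0.45) or the methods' t-test (0.54), and was 0.37 to 0.71 with an array left out, the call being lost without TEB 2, duct 2 or any 1 stroma array.

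The members called between TEBs and stroma, 2 as reported, were 0 with the percentile over all mouse miRNAs, 1 without scaling, 1 with normexp and 0 to 3 with an array left out, the 3 arising without TEB 3, when miR-130b entered through the TEB arrays that detected it, with all stroma and duct arrays at the floor, so that this call carries no weight. The same entry gave 1 member against ducts (range 0 to 1). Between ducts and stroma, 0 as reported, there was 1 without scaling, with normexp and with the trended, robust variance, and 0 to 0 with an array left out.

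Of all miRNAs tested, 41 were called between TEBs and ducts. There were 71 with 16 added, 70 with the baseline subtracted, 18 with no detection filter, 75 without scaling, 16 with the replicate block, 12 by the methods' t-test after adjustment (53 before it), and 5 to 70 with an array left out (70 without TEB 1, 5 without TEB 2, 10 without duct 1). Between TEBs and stroma 108 became 66 with the percentile over all mouse miRNAs, 85 by the methods' t-test (108 before adjustment) and 82 to 114 with an array left out. Between ducts and stroma 36 became 19 with that percentile, 56 without scaling, 66 with normexp, 26 by the methods' t-test (47 before adjustment) and 26 to 40 with an array left out.

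The scaling also moved all miRNAs together. From ducts to TEBs their median was -0.10 as reported, 0.45 with the percentile over all mouse miRNAs, -0.47 without scaling and 0.02 with quantile normalisation, and the share of calls higher in TEBs was 46.3%, 80.0%, 16% and 68.9%. From stroma to TEBs the medians were -0.28, 0.12, -0.03 and -0.07 and the shares higher in TEBs 31.5%, 57.6%, 50% and 40.6%. From stroma to ducts the medians were -0.09, -0.25, 0.50 and -0.13 and the shares higher in ducts 44.4%, 57.9%, 92.9% and 47.2%.

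Same-numbered arrays of different tissues did not deviate together (mean correlation -0.10 over 7 pairs, against 0.05 over 14 pairs of different numbers), so the replicate numbers were not used as pairs. With the block the change of miR-130b* from ducts to TEBs was no longer called (-1.92, adjusted p = 0.073 by limma), nor were those of miR-19a (1.65, adjusted p = 0.0501) and miR-19b (0.63, adjusted p = 0.061) from ducts to TEBs and of miR-19b from stroma to ducts (0.45, adjusted p = 0.097), and apart from the changes given above no other call of the named results changed.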
